A study of Mus musculus with 8 samples.

Results

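The regions described here are the 999 peaks of H3K27me3 in the authors' table for that mark, out of 7689 peaks that the series lists for 3 histone marks. All rows of the table were taken, and none was dropped by a filter. Each row gives a region of the mouse genome and 1 value per genotype, from 1 library each. The cells were C3H10T1/2, a mouse line of mesenchymal progenitors from C3H embryos. They stably expressed histone H3.3 with a FLAG-HA tag, in the wild-type form (WT) or with the K36M mutation, in which methionine replaces lysine 36. Both genotypes carried the tag, were used at passages 10 to 15, and received Drosophila S2 chromatin equal to 5% of the mouse chromatin before precipitation. Micrococcal nuclease released the mononucleosomes, and the H3K27me3 antibody came from Cell Signaling. The series has 8 samples, of which 6 are precipitated libraries and 2 are inputs. Whether each line was a clone or a pool is not given in the sources used here. The tables hold no expression values, so the identity of the cells could not be checked against marker genes.

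H3K27me3, trimethylation of lysine 27 of histone H3, is written by Polycomb repressive complex 2 and marks silenced genes, among them many regulators of development. Promoters rich in the dinucleotide CG are its typical sites. H3K36me2 and H3K36me3 lie on the same histone tail, and a tail that carries them is a poor substrate for Polycomb repressive complex 2. H3.3 K36M is a mutation of cartilage tumours that lowers H3K36 methylation well beyond the nucleosomes that contain it. The series asks how that loss is accompanied by changes in H3K27 methylation.

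The Hox clusters are the textbook Polycomb domains, and 4 of the H3K27me3 peaks lay on them. The clusters encode homeobox transcription factors that pattern the body axis and the limbs. No annotation of mm9, the mouse build named in the submitters' processing notes, was used here. Locus names therefore rest on the well-known positions of these genes in mm9 and were not read from a table. Promoters of genes in these clusters are shown because CG-rich promoters are the typical Polycomb sites. They come from RefSeq on GRCm38.p6, a later build, so their coordinates cannot be compared with those of the peaks. Each runs from 250 bases before to 50 bases after a gene's start, 5′ to 3′ on the gene's strand, and capitals mark each CG. One gene is shown for each cluster, with Foxa2, an endoderm regulator at another of the named loci. Foxa2 has 3 promoters in the table, and the one farthest 5′ is shown.
Hoxa13 promoter (GRCm38.p6 chr6:52260831-52261130, minus strand): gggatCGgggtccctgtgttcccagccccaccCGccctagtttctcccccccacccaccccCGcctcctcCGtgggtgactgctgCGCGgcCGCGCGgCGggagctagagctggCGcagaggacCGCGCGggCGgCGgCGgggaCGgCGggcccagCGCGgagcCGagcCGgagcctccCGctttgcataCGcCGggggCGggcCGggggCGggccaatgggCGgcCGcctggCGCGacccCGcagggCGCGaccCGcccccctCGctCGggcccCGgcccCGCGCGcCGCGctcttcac
Hoxb4 promoter (GRCm38.p6 chr11:96318017-96318316, plus strand): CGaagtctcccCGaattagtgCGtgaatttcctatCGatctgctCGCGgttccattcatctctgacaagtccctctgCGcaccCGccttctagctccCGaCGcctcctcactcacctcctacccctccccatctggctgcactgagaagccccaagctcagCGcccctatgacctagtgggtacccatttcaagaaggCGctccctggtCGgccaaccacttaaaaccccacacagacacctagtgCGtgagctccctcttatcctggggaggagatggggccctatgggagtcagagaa
Hoxc4 promoter (GRCm38.p6 chr15:103034145-103034444, plus strand): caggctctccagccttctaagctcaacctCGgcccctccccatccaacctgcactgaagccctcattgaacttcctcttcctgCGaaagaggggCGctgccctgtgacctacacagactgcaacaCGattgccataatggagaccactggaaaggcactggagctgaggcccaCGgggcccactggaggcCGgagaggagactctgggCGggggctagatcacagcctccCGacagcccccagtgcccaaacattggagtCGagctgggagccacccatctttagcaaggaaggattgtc
Hoxd13 promoter (GRCm38.p6 chr2:74667975-74668274, plus strand): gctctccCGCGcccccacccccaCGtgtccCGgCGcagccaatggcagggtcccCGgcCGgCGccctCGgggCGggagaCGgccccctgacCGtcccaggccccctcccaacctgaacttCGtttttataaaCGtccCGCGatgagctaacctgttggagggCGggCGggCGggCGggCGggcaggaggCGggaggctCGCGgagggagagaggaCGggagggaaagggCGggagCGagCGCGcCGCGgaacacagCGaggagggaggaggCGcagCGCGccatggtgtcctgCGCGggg
Foxa2 promoter (GRCm38.p6 chr2:148046920-148047219, minus strand): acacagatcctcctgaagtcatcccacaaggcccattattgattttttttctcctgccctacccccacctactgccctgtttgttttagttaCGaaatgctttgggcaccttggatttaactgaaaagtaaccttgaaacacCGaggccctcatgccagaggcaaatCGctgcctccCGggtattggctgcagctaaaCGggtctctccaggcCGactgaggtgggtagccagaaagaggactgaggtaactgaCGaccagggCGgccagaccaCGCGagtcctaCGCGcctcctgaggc

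CG was counted as these 2 letters, which read the same on both strands. The Hoxa13 window held 45 and the Hoxd13 window 37, and only 1.93% and 5.58% of the 32851 promoters in the table held as many or more. The Hoxb4, Foxa2 and Hoxc4 windows held 14, 12 and 9, against a median of 7 over all promoters. As many or more were held by 36.3%, 39.6% and 45.8% of promoters, so these 3 windows were not unusually rich in CG. Of the Hox genes, 24 promoters of 22 genes were found in the table, with a median of 14.5. The median was 17.5 over 10 Hoxa, 13 over 3 Hoxb and 20 over 10 Hoxd promoters, and 1 Hoxc promoter was found. The Hoxa13 and Hoxd13 windows lay above the upper quartiles of their clusters, 24.75 and 24.25. The genes shown thus need not represent their clusters. The counts describe these windows and say nothing of how Polycomb was recruited there.

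With 1 library per genotype, no difference given here has a replicate check, and no test or p-value is given. Reads inside the peaks numbered 1703298 in WT against 1124047 in K36M. The median peak held 1215 and 788 reads, and no peak held fewer than 89 in WT or 41 in K36M. The value of 1 read was 0.18 in WT against 0.26 in K36M, found as the common step of each column. Counting error was therefore small beside most differences, and the error between cultures and precipitations was not measured.

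H3K27me3 was lower in K36M over HoxB and HoxC and differed little over HoxD and HoxA. Values are reads per peak that the authors scaled to the Drosophila spike-in, called scaled reads here, and intervals are exact Clopper-Pearson 95% intervals from the recovered reads. They cover counting error only, and sequencing reads need not be independent molecules. The HoxB peak, on chromosome 11 from 96006400 to 96248199, had 3384 scaled reads in WT against 2642 in K36M (ratio 0.781, interval 0.762 to 0.800). The HoxC peak, on chromosome 15 from 102725000 to 102978399, had 4091 and 3453 (ratio 0.844, interval 0.826 to 0.862). These were the longest 2 of the 999 peaks, at 253.4 kb for HoxC and 241.8 kb for HoxB. The HoxD peak, on chromosome 2 from 74483400 to 74661599, had 1695 in WT against 1737 in K36M (ratio 1.02, interval 0.993 to 1.06). On HoxA only a 23.4 kb peak at the Hoxa13 end was listed, on chromosome 6 from 52196400 to 52219799. It had 222 and 211 scaled reads (ratio 0.954, interval 0.872 to 1.04). With the deposited spike-in factors, the counting intervals of HoxA and HoxD included no change. With both libraries scaled to the same total, the log2 ratio was 0.0011 for HoxA and 0.10 for HoxD. The statement for HoxD thus depends on the factors. Peaks on either side of HoxB were also lower in K36M, at ratios of 0.476 for a 7.6 kb peak starting at 95868400 and 0.784 for a 127.6 kb peak starting at 96293800.

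Of 18 loci of developmental regulators in the list used here, the Hox clusters among them, 7 had an H3K27me3 peak within 20 kb and 11 had none in the table. A 90.4 kb peak over Foxa2, on chromosome 2 from 147841400 to 147931799, had 863 scaled reads in WT against 656 in K36M (ratio 0.760, interval 0.724 to 0.798). A 15 kb peak at Shh, the gene of the hedgehog ligand, had 131 and 116 (ratio 0.881, interval 0.781 to 0.992). A 10.6 kb peak at T, the mesoderm gene brachyury, had 105.3 and 104.8 (ratio 0.995, interval 0.874 to 1.13), and its log2 ratio was 0.062 at equal totals. With the deposited spike-in factors, the loci with a listed peak were thus lower in K36M or within counting error of WT. At equal totals the log2 ratio of HoxD rose to 0.10, so this reading depends on the factors. Listed peaks were absent at Pax3, Pax6, Sox2, Sox9, Nkx2-1, Myod1, Tbx3, Tbx5, En1, Gata2 and Isl1. This says nothing of H3K27me3 at those loci, since how the listed peaks were selected is not given in the sources used here.

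Losses and gains of H3K27me3 occurred side by side. In K36M, 624 peaks (62.5%) had lower and 375 (37.5%) had higher values. Total signal was 306594 scaled reads in WT against 292252 in K36M (ratio 0.953). Summed over peaks, K36M minus WT was 17359 scaled reads in the higher peaks and −31701 in the lower ones. With both libraries scaled to the same total, 47.9% of peaks were higher, so the balance of directions depends on the spike-in factors, and the order of the peaks does not. The median log2 ratio was −0.08. The counting interval lay wholly below no change in 423 peaks and wholly above it in 221, and included it in 355. These counts hold the factors fixed, though they are known only to 2 decimals. Within that rounding alone, the share of higher peaks ran from 29.1% to 47.7%. The quartiles of the log2 ratio were −0.28 and 0.11. In 17 peaks (1.7% of all) the K36M value was 2-fold lower or more, and in 7 (0.701%) it was 2-fold higher or more. At 1.5-fold there were 81 lower peaks (8.11%) and 34 higher peaks (3.4%).

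The peaks with 2-fold gains were short, and most touched H3K36 methylated regions. Of the 7 higher peaks 6 overlapped a listed H3K36me2 or H3K36me3 peak, and of the 17 lower peaks 0 did, against 5.61% of all peaks. The count in the lower peaks is near that share. The median length was 17 kb among the 17 lower peaks and 9.2 kb among the 7 higher ones, against 24.2 kb over all peaks. Both lists thus had medians below that of all peaks. Density, the signal per kb of peak, had a median of 9.90 scaled reads per kb in WT against 4.16 in K36M in the lower peaks. In the higher peaks it was 11.5 in WT against 25.5 in K36M. These WT and K36M densities belong to the contrast that chose the peaks and are given as a description.

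The 5 lowest ratios were 0.298 to 0.400, 4 on chromosome 15 and 1 on chromosome 6. The lowest was a 6 kb peak on chromosome 15, from 41069600 to 41075599, with 71.5 scaled reads in WT against 21.3 in K36M (interval of the ratio 0.232 to 0.379). A 23.8 kb peak of the same chromosome, from 53628400 to 53652199, had 236 and 82.9 (ratio 0.352, interval 0.310 to 0.398). Also on chromosome 15, a 45.4 kb peak starting at 40944200 had 506 and 174 (ratio 0.344, interval 0.316 to 0.375), and a 61 kb peak starting at 41166200 had 540 and 216 (ratio 0.400, interval 0.370 to 0.432). On chromosome 6, neighbouring peaks of 5.4 and 7 kb between 40915800 and 40949999 had ratios of 0.406 (0.331 to 0.495) and 0.379 (0.311 to 0.458). Of the 17 peaks, 7 lay on chromosome 15, 2 each on chromosomes 6, 11 and 16, and 1 each on chromosomes 1, 2, 10 and 17. Of all 999 peaks, 119 lay on chromosome 15, 16 on chromosome 6, 95 on chromosome 11 and 37 on chromosome 16. The 2-fold lower peaks were thus 5.88% of those on chromosome 15, against 1.7% of all peaks, and several of them were neighbours.

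The 5 highest ratios were 2.17 to 2.35, 4 on chromosome 5 and 1 on chromosome 9. The highest was a 6.8 kb peak on chromosome 5, from 15019200 to 15025999, with 87.1 scaled reads in WT against 205 in K36M (ratio 2.35, interval 2.09 to 2.64). A peak of 1.8 kb on chromosome 9, from 105473600 to 105475399, had 20.9 and 47.8 (ratio 2.29, interval 1.81 to 2.92). The chromosome 9 peak was the only 2-fold higher peak with no overlap with H3K36 methylation peaks. The others among the 5 were on chromosome 5. A 17.4 kb peak starting at 14946800 had 200.2 and 447 (ratio 2.23, interval 2.07 to 2.41), a 2 kb peak starting at 16973400 had 22.7 and 50.2 (ratio 2.21, interval 1.76 to 2.79), and an 11 kb peak starting at 14923200 had 99.5 and 216 (ratio 2.17, interval 1.95 to 2.42). Just inside the 2-fold limits were ratios of 0.498 on chromosome 10 and 2.04 on chromosome 5. Just outside were 0.506 on chromosome 9 and 1.9997 on chromosome 8.

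**Figure D1:**
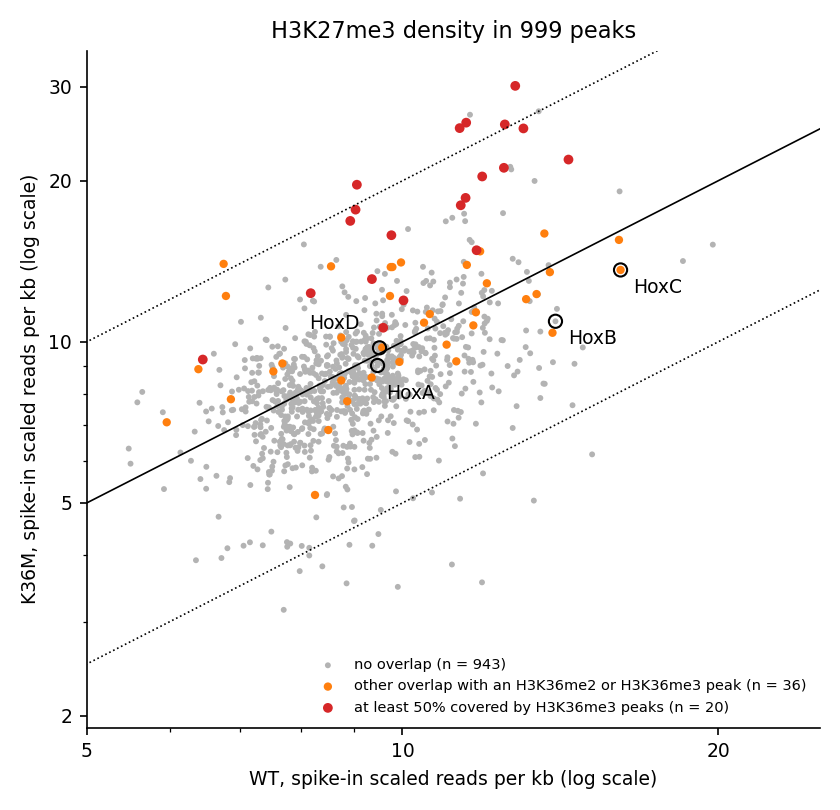
Each point is 1 of the 999 H3K27me3 peaks, with its WT density on the horizontal and its K36M density on the vertical axis, both in spike-in scaled reads per kb on log scales. The solid line marks equal values and the dotted lines 2-fold differences, and circles mark the Hox clusters. The 20 peaks covered for at least 50% by H3K36me3 peaks all lie above the line of equal values.

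In absolute terms the largest losses were at HoxB and HoxC, which were also the longest peaks. HoxB held 742 fewer scaled reads in K36M and HoxC 638 fewer, at the modest ratios of 0.781 and 0.844. Next came a 189.6 kb peak on chromosome 10, from 18278400 to 18467999, with 1662 in WT against 1175 in K36M (ratio 0.707, interval 0.682 to 0.733). An 87.4 kb peak on chromosome 15, from 52243200 to 52330599, had 787 and 405 (ratio 0.515, interval 0.486 to 0.546). The largest gain was 614 scaled reads, in a 77.6 kb peak on chromosome 1 from 33870800 to 33948399, with 692 in WT against 1306 in K36M (ratio 1.89, interval 1.81 to 1.97). A pair of peaks on chromosome 17 followed. The first, from 8186800 to 8312799, had 1256 scaled reads in WT against 1773 in K36M, and the second, from 7210200 to 7334199, had 1209 and 1711. Both had counting intervals of 1.37 to 1.46. A 191.2 kb peak on chromosome 11, from 118659800 to 118850999, had 1759 and 2192 (ratio 1.25, interval 1.21 to 1.28), with no overlap with H3K36 methylation peaks.

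H3K27me3 was higher in K36M in each of the 20 peaks that H3K36me3 peaks covered for the most part, and in most of those that H3K36me2 peaks covered. The H3K36 peaks come from other libraries and antibodies, with 1691 peaks for H3K36me2 and 4999 for H3K36me3. Among the 958 peaks with no H3K36me3 overlap, 345 were higher in K36M and the median log2 ratio was −0.09. The 21 peaks covered for less than 50% had their median at −0.03, with 10 higher. Of the 20 covered for 50% or more, 20 were higher, against 37.5% of all peaks, with ratios from 1.11 to 2.35 and a median log2 ratio of 0.73. For H3K36me2 the medians were −0.09 in 961 peaks without overlap, 0.19 in 22 covered for less than 50%, and 0.68 in 16 covered for 50% or more. Higher values were found in 14 of those 16 peaks.

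**Figure D2:**
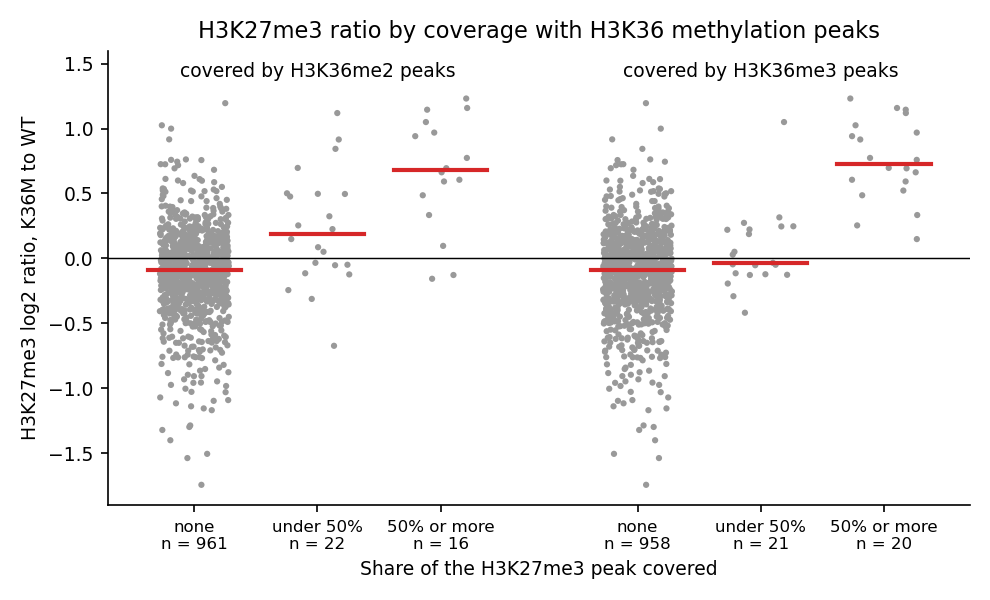
The vertical axis is the log2 ratio of K36M to WT for each H3K27me3 peak, and columns group the peaks by the share covered by H3K36me2 peaks (left) and H3K36me3 peaks (right). Red bars are medians over peaks. The column of at least 50% coverage by H3K36me3 has its median at 0.73 and no peak below 0.

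The 20 peaks covered by H3K36me3 lay on 8 chromosomes, with 8 of them on chromosome 5 and 5 on chromosome 1. They were short, with a median of 10.7 kb against 24.2 kb for all peaks. They were dense as well, with median densities of 11.4 per kb in WT and 18.3 per kb in K36M. The 3 examples that follow were chosen after their values were seen. On chromosome 1 a 56.2 kb peak from 90108400 to 90164599, covered in full by both H3K36 marks, had 639 scaled reads in WT against 1012 in K36M (ratio 1.58, interval 1.51 to 1.66). A 15.6 kb peak on chromosome 5, from 33066600 to 33082199, had 195 and 330 (ratio 1.69, interval 1.56 to 1.84), with no H3K36me2 peak on it. At the low end, a 53.6 kb peak on chromosome 17 from 6219600 to 6273199 had 514 and 570 (ratio 1.11, interval 1.05 to 1.17). Without the 6 peaks of 1 block on chromosome 5, a choice made after the values were seen, 14 of 14 were higher and the median log2 ratio was 0.63.

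The H3K36 peaks at these 20 sites were themselves denser than other peaks of their marks and lower in K36M by less. The 22 H3K36me3 peaks that met them had a median WT density of 27.1 per kb, against 18.8 in the other 4977. Their median log2 ratio was −1.10, against −1.71. The 16 H3K36me2 peaks that met them had a median density of 69.5 in WT against 42.5, and a median log2 ratio of −1.03 against −2.07. These sites thus carried more signal than usual in all 3 marks and had higher ratios in all 3. The part of this shared elevation in the H3K27me3 gains was not tested. A covered peak does not show that the marks share nucleosomes, alleles or cells.

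Among the stronger gains, overlap was common but far from complete. Of the 34 peaks at least 1.5-fold higher, 18 (52.9%) touched an H3K36 peak, and these were 32.1% of the 56 peaks that did. Over all peaks the share that touched one was 5.61%. Of the 81 peaks at least 1.5-fold lower, 1 touched an H3K36 peak. The gains without overlap included a 31.8 kb peak on chromosome 8, from 19853800 to 19885599. It had 429 scaled reads in WT against 858 in K36M.

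Peak length did not order the ratios. The median log2 ratio was −0.09 in the 300 peaks below 15 kb, −0.09 in the 216 of 15 to 25 kb, −0.09 in the 198 of 25 to 40 kb, and −0.08 in the 285 of 40 kb or more. Total ratios of these classes were 0.977, 0.955, 0.930 and 0.956. The spread was widest in the shortest class. The SD of the log2 ratio was 0.43, 0.36, 0.30 and 0.32 in the 4 classes from short to long, and counting error alone would give 0.12, 0.08, 0.06 and 0.04. Of the 7 peaks with a 2-fold gain, 5 were below 15 kb and 2 between 15 and 25 kb, against 7 and 4 of the 17 with a 2-fold loss. Across all 999 peaks, Spearman's rho between length and log2 ratio was −0.00073. The peaks share their libraries and are not replicates.

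The 49 peaks of 100 kb or more were nearly balanced. Of these, 25 were higher in K36M (51.0%, against 37.5% of all peaks). Their ratios ran from 0.653 to 1.42, with a median log2 ratio of 0.000915. None of the 49 differed 2-fold, against 1.7% of all peaks with a 2-fold loss and 0.701% with a 2-fold gain. In so few peaks that count is near the share over all peaks. At least 1.5-fold lower was 1 peak (2.04%), against 8.11% of all peaks. After HoxC and HoxB, the longest was a 219.2 kb peak on chromosome 10 from 23630400 to 23849599, with 1974 scaled reads in WT against 1740 in K36M (ratio 0.881, interval 0.855 to 0.908). On chromosome 19, a 167.6 kb peak from 44793600 to 44961199 had 1647 and 1801 (ratio 1.09, interval 1.06 to 1.13). On chromosome 15, peaks of 161.2 and 156.4 kb, starting at 101605200 and 26968000, had ratios of 0.823 (0.797 to 0.850) and 0.765 (0.736 to 0.796).

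**Figure D3:**
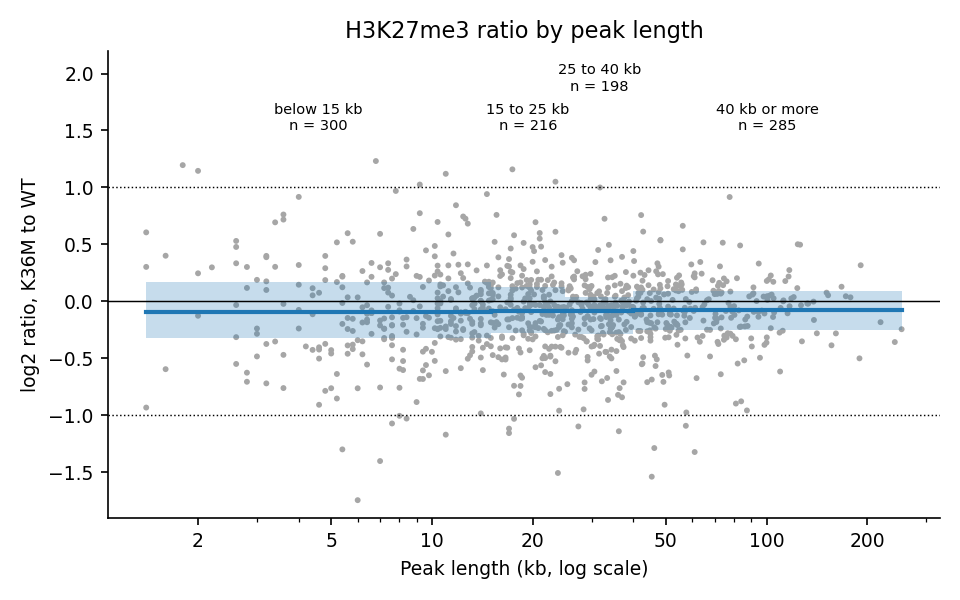
The horizontal axis is peak length in kb on a log scale and the vertical axis the log2 ratio of K36M to WT, with 1 point per H3K27me3 peak. Blue lines are the medians of the 4 length classes, all between −0.10 and −0.07, shaded bands run from the lower to the upper quartile, and dotted lines mark 2-fold differences.

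How the ratios varied with density depended on the library used to rank the peaks. By the mean of both libraries, the sparsest 200 peaks had a median log2 ratio of −0.28, with 17.0% higher in K36M, and the densest 200 peaks 0.07, with 57.0% higher. Ranked by WT density, the order turned: 0.03 in the sparsest 200 and −0.16 in the densest 200. Ranked by K36M density, the values were −0.42 and 0.20. Each library's value enters both the ratio and its own ranking, which pulls the last 2 splits in opposite directions by construction. The mean holds both values, so a gain also raises a peak in that ranking and a loss lowers it. The densest 200 by the mean held 7 of the 7 peaks with 2-fold gains and 1 of the 17 with 2-fold losses, and the densest 200 by WT density held 5 and 7. The densest 200 by the mean were shorter, with a median of 14.6 kb against 27.3 kb in the sparsest 200.

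Chromosomes differed in the balance of gains and losses. Total H3K27me3 signal over the listed peaks was lower in K36M on 14 of 20 chromosomes and higher on 6. The ratio of totals ran from 0.814 on chromosome 3 to 1.08 on chromosome 17 among the autosomes, and was 1.33 on chromosome X. On chromosome 3, 13 of 14 peaks were lower, against 62.5% of all peaks. Chromosome 2, with the most peaks, had a median log2 ratio of 0.0031 over 121 peaks, of which 61 were higher. Chromosome 15 had 119 peaks, of which 23 were higher (19.3%, against 37.5% of all peaks), and a total ratio of 0.854. It held 11.9% of all peaks and 22 of the 81 peaks at least 1.5-fold lower (27.2%).

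On chromosome X, 17 of 19 peaks were higher in K36M, against 37.5% of all peaks. The higher ones ran from 2.6 to 83.4 kb in length, and the longest peak, of 105.4 kb, was lower. Ratios ran from 0.887 to 1.89. The lowest was a 10.4 kb peak from 131096000 to 131106399, with 86.2 scaled reads in WT against 76.4 in K36M and a counting interval of 0.764 to 1.03. A 105.4 kb peak from 49729200 to 49834599 had 959 and 896 (ratio 0.935, interval 0.895 to 0.976). Domains of 64.8 and 83.4 kb, also named after their values were seen, from 67643200 to 67816999, had 613 and 735 scaled reads in WT and 879 and 1032 in K36M. The highest was a 4 kb peak from 4257600 to 4261599, with 32.2 and 60.8 (ratio 1.89, interval 1.55 to 2.31). In median density the 19 peaks went from 8.81 scaled reads per kb in WT to 12.1 in K36M. None of these 19 peaks touched a listed H3K36me2 or H3K36me3 peak, against 5.61% of all peaks. In so few peaks that count is near the share over all peaks.

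Chromosome 13 was the autosome with the highest median, a log2 ratio of 0.18 over 12 peaks, 9 of them higher, against 37.5% of all peaks. The log2 ratio of its summed signal was 0.098, and the 95% rank interval of the median, which treats peaks as independent, was −0.05 to 0.30 and included no change. Its ratios ran from 0.830 (0.750 to 0.918), in a 19.8 kb peak from 83852600 to 83872399, to 1.29 (1.11 to 1.51), in an 8.4 kb peak from 21629400 to 21637799. The H3K36me3 ratios deviated in the same direction on chromosomes X and 13, though not on every chromosome. Their median log2 ratio was 0.30 above that of all H3K36me3 peaks on chromosome X and 0.39 above it on chromosome 13. It was 0.31 above it on chromosome 18, where only 4 H3K27me3 peaks were listed, and 0.02 above it on chromosome 3, which had the lowest H3K27me3 total. The 2 H3K36me2 peaks of chromosome X deviated by 0.49 and the 50 of chromosome 13 by 0.14. On chromosome 15 the H3K36me3 deviation was −0.17. Copy number of the chromosomes was not measured, as the input libraries were not analysed here, and its part in these differences was not tested.

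**Figure D4:**
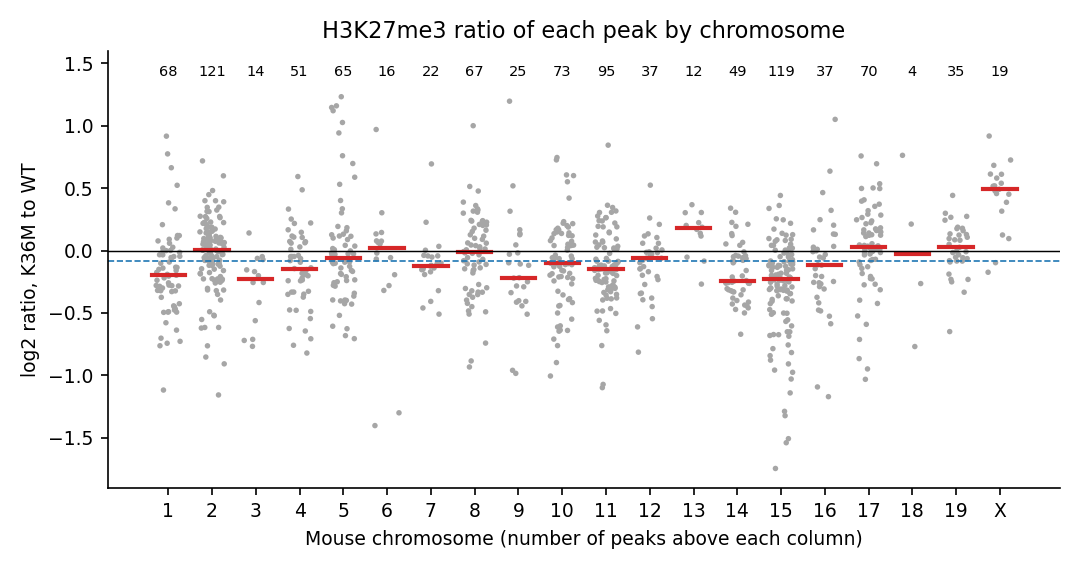
Each point is the log2 ratio of K36M to WT of 1 H3K27me3 peak, placed by chromosome, with the number of peaks above each column. Red bars are medians and the dashed line is the median of all 999 peaks, −0.08. The bar of chromosome X stands at 0.49 and that of chromosome 13 at 0.18.

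Neighbouring peaks had more similar ratios than distant ones. When peaks with gaps of at most 100 kb were joined, the 999 peaks formed 746 blocks, of which 575 held 1 peak and 55 held at least 3. In 23 of these 55 all peaks were lower in K36M, in 12 all were higher, and 20 were mixed. Over all peaks 62.5% were lower and 37.5% higher. Blocks of a single direction thus also arise without any likeness of neighbours, and these counts alone do not show it. Adjacent peaks less than 10 kb apart differed by a median of 0.15 on the log2 scale (78 pairs), and those 2 Mb or more apart by 0.28 (250 pairs). Pearson's r between adjacent log2 ratios was 0.80 and 0.15 in these classes, and 0.40 in the 211 pairs at 100 to 500 kb. Such pairs share their libraries.

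The block with the lowest ratio spanned 283 kb of chromosome 15, from 40944200 to 41227199. Its 4 peaks together had 1421 scaled reads in WT against 549 in K36M (ratio 0.386, interval 0.368 to 0.406). The 4 peaks had WT densities of 8.39 to 11.9 scaled reads per kb and K36M densities of 3.54 to 3.84, so the K36M densities lay closer together than those of WT. These K36M densities lay near the lowest of any peak, 3.16, against a median of 8.43 over all peaks, and the block was chosen by its low ratio. A second block of the same chromosome, from 39647200 to 39990799, had 1439 and 823 (ratio 0.572, interval 0.548 to 0.596), with 4 of 4 peaks lower. On chromosome 10, 3 peaks from 51396400 to 51595399 had 885 and 513 (ratio 0.579, interval 0.550 to 0.611). On chromosome 3, 3 peaks from 96125800 to 96266599 had 990 and 683 (ratio 0.690, interval 0.658 to 0.722).

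The block with the highest ratio held 6 peaks on chromosome 5, from 14923200 to 15209399. Together they had 794 scaled reads in WT against 1633 in K36M (ratio 2.06, interval 1.98 to 2.14), and single peaks ran from 1.62 to 2.35. All 6 were covered for more than 50% by H3K36me3 peaks, and 4 of them were among the 7 peaks with 2-fold gains. Whether these 6 peaks share sequence, and so reads, was not tested. On chromosome 16, 3 peaks from 3168400 to 3303199 had 325 and 549 (ratio 1.69, interval 1.58 to 1.80). On chromosome X, 3 peaks from 99906200 to 100061999 had 1248 and 1856 (ratio 1.49, interval 1.44 to 1.54), with single peaks between 1.43 and 1.53. On chromosome 10, 4 peaks from 22115800 to 22304199 had 646 and 876 (ratio 1.36, interval 1.29 to 1.42). Gains in this last block were uneven: the first 2 peaks had ratios of 1.65 and 1.46, and the other 2 had 1.03 and 1.09.

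**Figure D5:**
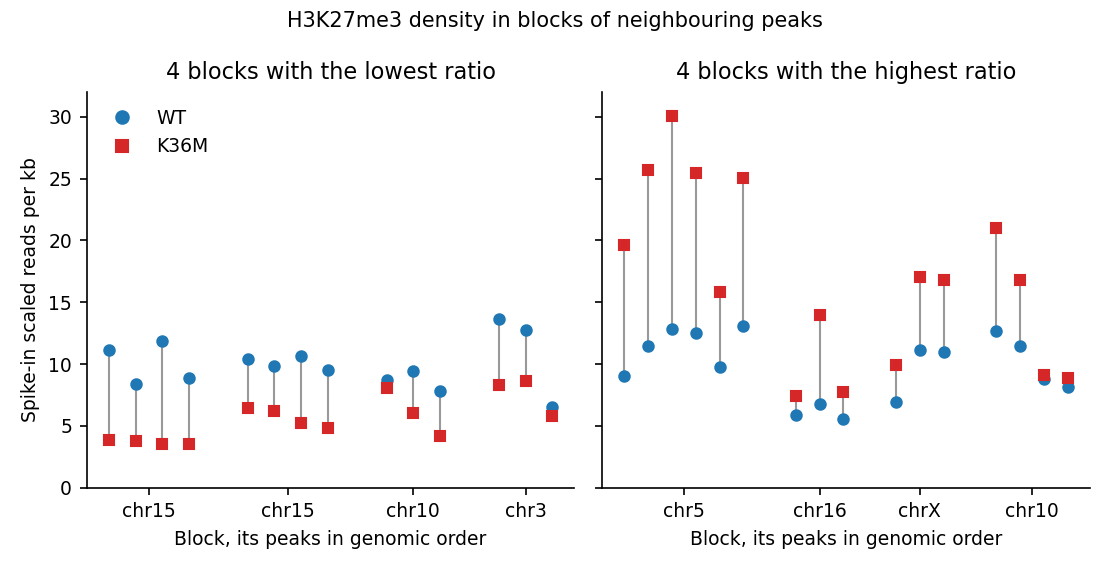
The vertical axis is H3K27me3 density in spike-in scaled reads per kb, in WT (blue circles) and K36M (red squares), for each peak of the 4 blocks with the lowest (left) and the 4 with the highest ratio (right). In the first block on the left the K36M densities lie between 3.54 and 3.84, and in the block on chromosome 5 all 6 red squares lie above the blue circles.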

How the data were processed

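H3K27me3 was measured by chromatin immunoprecipitation and sequencing with a Drosophila spike-in, with 1 library per genotype. The signal the authors deposited is the number of reads per peak after scaling to that spike-in, per the file headers. The submitters' processing notes name Bowtie 1.0.0, mm9 for mouse and dm6 for Drosophila. Not given in the sources used here were the peak caller, the library it was run on and how the factors were derived. Coordinates are printed as deposited, and all starts are multiples of 1 window size, as in positions counted from 0. Reads were recovered by dividing each column by its greatest common step. The ratio is K36M over WT with no pseudocount. Length is end minus start plus 1. Coverage is the share of an H3K27me3 peak inside peaks of another mark. Regions named are the 5 lowest and 5 highest ratios, the 5 largest losses and gains, the longest peaks, the 4 lowest and highest blocks, the extremes of deviating chromosomes and the listed loci. Peaks, loci, classes and rules were chosen with earlier results of these data known. Some other loci considered are not reported here. The calculations were tested on simulated counts. Python 3.11.15, numpy 2.4.6, pandas 2.3.3, scipy 1.17.1 and matplotlib 3.10.9 were used.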

Additional observations from a re-analysis of the deposited data

How the results depend on the processing

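No paired analysis was possible because each genotype has 1 library, and no replicate could be left out. Of 64 recalculated values, 39 stayed within the interval, or within 1.5 times the count, reported above. Some of them could not change. A common scaling leaves a difference between length classes as it is. Chromosome X held no peak with a 2-fold change or an overlap, so those values were the same on autosomes. With both libraries scaled to the same total, the total ratio was 1, the median log2 ratio of all peaks −0.015, and the log2 ratios of HoxB, HoxC and HoxD were −0.29, −0.18 and 0.10. Under factors known only to 2 decimals, the total ratio lies between 0.910 and 0.999 and the median log2 ratio between −0.15 and −0.016. The total ratio was 0.960 among the peaks of higher mean signal (at least the median) and 0.945 on autosomes. Peaks at least 2-fold lower and higher numbered 5 and 2 among those same peaks, 4 and 1 with a pseudocount at the 5th percentile, 81 and 34 at 1.5-fold, and 7 and 2 where the whole counting interval lay past 2-fold. The difference between the densest and the sparsest 200 peaks, 0.34 by mean density, was 0.62 by K36M density and reversed to −0.18 by WT density, since each library's value enters its own ranking and the ratio. Gaps of at most 50 kb left 34 blocks of at least 3 peaks, and the highest block ratio was then 1.49, as the blocks on chromosomes 5 and 16 were both split into parts of fewer than 3 peaks. Coverage of at least 50% gave medians of 0.68 for H3K36me2 and 0.73 for H3K36me3, in place of 0.48 and 0.27 for any overlap. The exclusion of the chromosome 5 block was the one alternative chosen after these values were seen. Depth limits short peaks most: the counting interval of the 1.8 kb peak on chromosome 9 ran from 1.81 to 2.92.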

Other observations

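Some H3K27me3 peaks came in pairs of nearly equal length and value. Among peaks of at least 10 kb and at most 2 Mb apart on the same chromosome, 6 pairs agreed within 5% in length, WT value and K36M value, a rule chosen after the values were seen. The peaks of 124 and 126 kb on chromosome 17, from 7210200 to 7334199 and from 8186800 to 8312799, had 1209 and 1256 scaled reads in WT and 1711 and 1773 in K36M. On chromosome 10, peaks of 12.4 and 12.6 kb starting at 21925800 and 22115800 had 157 and 160 in WT and 263 and 265 in K36M. Peaks of 21 kb starting at 21944400 and 22134600 had 240 and 241 in WT and 365 and 353 in K36M. Both chromosome 10 pairs were spaced by about the same distance, 190 kb for the first and 190.2 kb for the second. These 3 pairs had ratios of 1.41 to 1.68, and the 3 others, on chromosomes 1, 2 and 15, had ratios of 0.919 to 1.14. Whether the members of a pair share sequence, and so reads, was not tested, as no mm9 genome was used here.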
